A study of Mus musculus with 9 samples.

Results

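The colony-stimulating factor (CSF) family of receptors and ligands was taken as 6 genes by symbol, out of 45664 genes in the count table: the receptor genes Csf1r, Csf2ra, Csf2rb and Csf3r, and the ligand genes Csf1 and Il34. All 6 had rows in the table, and 5 passed the filter on low counts used for testing. Il34 did not pass it. The RNA came from visual cortex microglia of adolescent C57BL/6 males, sorted as live CD11b+ cells with low CD45, with 1 library per mouse. The ethanol group (4 mice) had received 1.8 g/kg ethanol as a 20% v/v solution under the skin, 2 times a day 2 h apart (3.6 g/kg daily), from postnatal day (P) 4 to P9. The saline group (5 mice) had received saline on those days. Ethanol mice 1 and 2 were sampled at P35 and ethanol mice 3 and 4 at P30. Saline mouse 1 was sampled at P36, saline mouse 3 at P35, saline mice 2 and 5 at P30 and saline mouse 4 at P29. The 9 mice belonged to 3 litters; which mouse came from which litter is not known here, so litter entered no fit.

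Microglia depend on signalling through CSF1R, a class III receptor tyrosine kinase, for their survival and their maintenance in the adult brain. CSF1R has a pair of ligands, CSF1 and IL-34, and in the brain neurons are the main source of IL-34. The receptor for GM-CSF pairs a ligand-specific alpha chain, encoded by Csf2ra, with the common beta chain encoded by Csf2rb, which the receptors for IL-3 and IL-5 also use, while Csf3r encodes the receptor for G-CSF.

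Library totals ranged from 12816198 to 28859244 counts, and 16835 to 18896 genes had a count in a library. The summed level of 10 microglia marker genes was 42302 to 52599 CPM (counts scaled so that all libraries have the same effective size) in ethanol libraries and 41163 to 48235 CPM in saline libraries, so the labelled cell type's defining genes were high in every library. Summed neuron markers were 83.1 to 312 CPM in ethanol libraries and 3.70 to 255 CPM in saline libraries, and summed astrocyte markers were 109 to 300 CPM in ethanol libraries and 7.74 to 262 CPM in saline libraries. A pair of libraries stood apart. Saline 1 held the lowest neuron and astrocyte sums. In ethanol 2, 690 of 8480 genes with a mean of at least 10 CPM (8.14%) were more than 2-fold below the other libraries, with a median transcript length of 6098 bases against 3433 bases for the rest. Markers of the oligodendrocyte lineage summed to 231 to 263 CPM in ethanol libraries and 198 to 259 CPM in saline libraries. Those of endothelial cells and pericytes summed to 48.8 to 68.4 CPM in ethanol libraries and 60.6 to 71.8 CPM in saline libraries. Markers of border macrophages summed to 39.1 to 91.3 CPM in ethanol libraries and 48.4 to 81.7 CPM in saline libraries. Those of monocytes and neutrophils summed to 4.84 to 16.2 CPM in ethanol libraries and 5.88 to 8.25 CPM in saline libraries. Of these 10 markers 7 had a count, and S100a8, S100a9 and Retnlg were at 0 in every library. In such bulk samples, fewer cells of a type and less RNA per cell cannot be told apart.

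Levels of different genes were compared as TPM, in which counts are divided by exon length and scaled to a common sum. The receptor for CSF1 stood far above every other family gene. Csf1r averaged 12130 ± 322 TPM over the 9 libraries (SD), the 6th highest of 41917 genes with a length, and it was the 2nd highest of all genes by CPM. Csf3r averaged 773 ± 53.4 TPM, Csf2rb 86.8 ± 9.14 TPM, Csf2ra 77.4 ± 21.4 TPM and Csf1 30.6 ± 8.56 TPM. Il34 averaged 0.150 TPM. Neighbours in this order were compared within mice with an exact two-sided paired permutation test, with p-values adjusted over 4 pairs. The pairs and their direction came from the means of these same libraries. The p-values thus describe how evenly a step held over mice and give no independent support for the order. Csf1r was 15.7-fold above Csf3r, Csf3r was 8.93-fold above Csf2rb, and Csf2ra was 2.52-fold above Csf1. Each of these steps held in 9 of 9 mice (exact p = 0.00391, the smallest this design allows; adjusted p = 0.00521). Their size depended on the length used. With the longest transcript as length, the log2 differences were 4.22 for Csf1r over Csf3r (against 3.98) and 2.64 for Csf3r over Csf2rb (against 3.16). That of Csf2ra over Csf1 was 1.33 (against 1.34). Csf2rb and Csf2ra, the chains of the GM-CSF receptor, were not separated: Csf2rb was higher in 7 of 9 mice, by 1.15-fold on average (mean log2 difference 0.20, SD 0.37, exact p = 0.133, adjusted p = 0.133). Whether that pair passed the threshold depended on the length used and on 1 library, with Csf2rb above Csf2ra on average throughout. With the longest transcript as length, the log2 difference was 0.44 (adjusted p = 0.0195 over the 4 pairs, exact permutation test), and without ethanol 4 it was 0.28 (adjusted p = 0.0391).

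**Figure D1:**
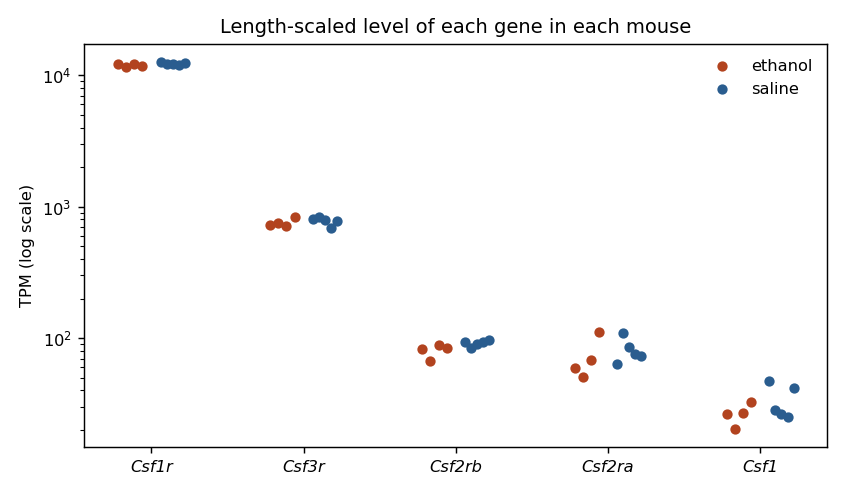
Level in TPM (log axis) of the 5 CSF family genes with enough counts to be ordered; each point is 1 mouse, ethanol mice left of saline mice. Csf1r lies far above the rest in every mouse, while the points of Csf2rb and Csf2ra overlap.

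Csf2rb has a close copy on the same chromosome, Csf2rb2, which in the mouse encodes a beta chain of the IL-3 receptor. Csf2rb lies at chr15:78325752-78353847 on the plus strand and Csf2rb2 at chr15:78282507-78305721 on the minus strand (GRCm38, GENCODE M21). Their coding sequences are identical at 2503 of 2628 aligned positions (95.2%), with a longest identical run of 242 bases. Of the 50-base windows of the Csf2rb transcript, 18.4% also occur in Csf2rb2, as do 6.96% of its 100-base windows. A read from such a window cannot be assigned to 1 gene, so the split of reads between these genes is uncertain. A pair of 100-base coding windows from the GENCODE M21 transcripts shows both ends of that range, and the differing bases are in capitals. The first window has 0 differences, in exon 15 of Csf2rb (chr15:78348577-78348676) and exon 14 of Csf2rb2 (chr15:78284772-78284871):
Csf2rb, identical window: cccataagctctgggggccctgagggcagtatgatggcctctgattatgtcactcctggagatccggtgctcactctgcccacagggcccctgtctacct
Csf2rb2, identical window: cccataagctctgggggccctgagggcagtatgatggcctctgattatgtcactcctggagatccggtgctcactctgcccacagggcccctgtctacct
The second window has 16 differences, in exon 5 of Csf2rb (chr15:78338887-78338986) and exon 4 of Csf2rb2 (chr15:78294345-78294444), so reads from it can be told apart:
Csf2rb, most different window: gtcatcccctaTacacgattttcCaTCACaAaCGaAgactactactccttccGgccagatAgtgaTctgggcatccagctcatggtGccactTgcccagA
Csf2rb2, most different window: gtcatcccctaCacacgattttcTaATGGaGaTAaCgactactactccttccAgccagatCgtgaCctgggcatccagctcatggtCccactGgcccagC

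Ethanol-exposed and saline-treated mice were compared to ask whether neonatal ethanol left a lasting difference in the family. No member was called different, and in every member the groups overlapped, where they did not overlap for 1.29% of all genes tested (0.658% with every ethanol library above every saline library). Of the 13067 genes tested, edgeR's quasi-likelihood test called 0 at an adjusted p under 0.05 (percent called 0), with 386 genes (2.95%) at an unadjusted p under 0.05. DESeq2 also called 0, with 435 genes at an unadjusted p under 0.05. Among members, 0 of 5 passed either threshold. All 5 had a log2 fold change below 0, with a median of -0.15, where 50.2% of all genes tested lay below 0 and the median absolute log2 fold change was 0.118.

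The ligand gene Csf1 had the largest fitted difference of the family, and its values in saline mice were spread widely. Csf1 (chr3:107741048-107760469, minus strand) had 38.7, 30.8, 40.6 and 46.1 CPM in ethanol mice 1 to 4, against 71.2, 40.3, 37.4, 36.7 and 59.3 CPM in saline mice 1 to 5. Saline 1 and saline 5 lay above every other library, and the remaining 3 saline libraries lay within the ethanol range. The group means were 39.1 ± 6.32 CPM in ethanol mice (SD, n = 4) and 49.0 ± 15.5 CPM in saline mice (SD, n = 5). The log2 fold change was -0.33 (SE 0.21, 95% interval -0.80 to 0.14), with an adjusted p of 0.963 by edgeR's quasi-likelihood test. Without 1 library in turn it ranged between -0.42 (without ethanol 4) and -0.15 (without saline 1). Saline 1, the library with the highest Csf1, was also the one with the lowest neuron and astrocyte marker sums; their part in the result was not tested.

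Il34, the gene of the other CSF1R ligand, was at the limit of detection. Its counts were 0, 2, 4 and 1 in ethanol mice 1 to 4, and 0, 0, 0, 5 and 2 in saline mice 1 to 5. Pooled over mice, 7 counts in ethanol libraries came to 0.0944 CPM (exact Poisson 95% interval 0.0380 to 0.195), and 7 counts in saline libraries came to 0.0658 CPM (0.0264 to 0.136). These intervals overlap and cover counting error only. A library at 0 allows up to 3 counts, which is 0.103 to 0.238 CPM over the 9 libraries. No difference was detectable at this depth.

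Csf1r, the receptor gene on chromosome 18 (61100598 to 61132149, plus strand), was among the steadiest transcripts of the family. It had 19521, 18918, 20086 and 18077 CPM in ethanol mice 1 to 4, against 20844, 18877, 18940, 19182 and 19172 CPM in saline mice 1 to 5. Saline 1 was the highest library and ethanol 4 the lowest, and 4 of 5 saline libraries lay within the ethanol range. Means were 19151 ± 860 CPM in ethanol mice (SD, n = 4) and 19403 ± 817 CPM in saline mice (SD, n = 5), a coefficient of variation of 4.11% over all 9. The fold was 0.987 (95% interval 0.904 to 1.08; log2 fold change -0.02, SE 0.06), with an adjusted p of 0.980 by edgeR's quasi-likelihood test. Without saline 1 the log2 fold change was 0.0084, on the other side of 0. On the opposite strand, Hmgxb3 overlaps 873 exonic bases of Csf1r, and without the strand setting their reads cannot be told apart. Hmgxb3 itself had 35.6 to 57.2 CPM.

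The ratio of receptor to ligand on the TPM scale followed Csf1. Csf1r was 461, 562, 452 and 359 times the level of Csf1 in ethanol mice 1 to 4, against 268, 428, 464, 478 and 296 times in saline mice 1 to 5. The lowest ratios were in saline 1 and saline 5, and the groups overlapped.

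Csf3r (chr4:126024550-126044440, plus strand) was the next highest receptor gene. It had 734, 774, 728 and 806 CPM in ethanol mice 1 to 4, against 840, 815, 766, 691 and 754 CPM in saline mice 1 to 5. The lowest and the highest library were both saline ones, and every ethanol value lay between them. Means were 760 ± 36.7 CPM in ethanol mice (SD, n = 4) and 773 ± 57.6 CPM in saline mice (SD, n = 5), and the log2 fold change was -0.02 (SE 0.07, 95% interval -0.18 to 0.14; adjusted p = 0.980, edgeR's quasi-likelihood test). Without saline 1 it was 0.0076. Csf3r is best known from neutrophils. Of 10 monocyte and neutrophil markers, 7 had a count, and S100a8, S100a9 and Retnlg were at 0 in all 9 libraries. The markers summed to 4.84 to 16.2 CPM in ethanol libraries and 5.88 to 8.25 CPM in saline libraries. Which cells the Csf3r reads came from was not tested.

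**Figure D2:**
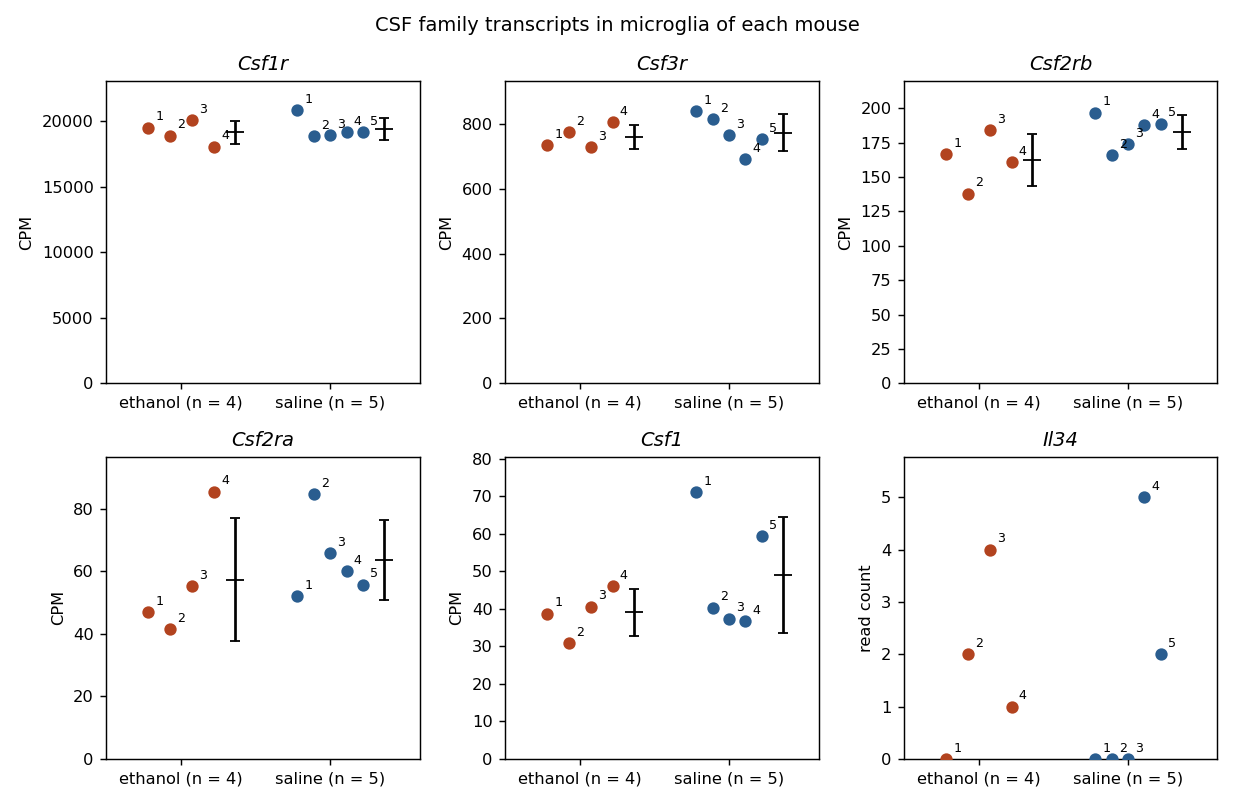
CPM of 5 CSF family genes and read counts of Il34 in each mouse; points are mice with their replicate numbers, ethanol left of saline, and bars beside the points are mean ± SD. The groups overlap in all 6 panels, and saline 1 is the highest library for Csf1r, Csf3r, Csf2rb and Csf1.

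The GM-CSF receptor chains had fitted differences of similar size, with a wider interval for the alpha chain gene. Csf2ra (chr19:61223957-61228429, minus strand), the alpha chain gene, had 47.0, 41.5, 55.4 and 85.5 CPM in ethanol mice 1 to 4, against 52.1, 84.7, 65.9, 60.0 and 55.8 CPM in saline mice 1 to 5. The highest libraries were ethanol 4 and saline 2, and the ethanol group spanned the whole saline range. The log2 fold change was -0.15 (SE 0.21, 95% interval -0.62 to 0.32), with an adjusted p of 0.963 by edgeR's quasi-likelihood test. Without 1 library in turn it ranged between -0.41 (without ethanol 4) and -0.02 (without ethanol 2).

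Csf2rb, the common beta chain gene, had the smallest unadjusted p of the family. It had 167, 138, 184 and 161 CPM in ethanol mice 1 to 4, against 197, 166, 174, 188 and 189 CPM in saline mice 1 to 5. Ethanol 2 and ethanol 4 lay below every saline library, and ethanol 1 and ethanol 3 lay within the saline range. Means were 162 ± 19.1 CPM in ethanol mice (SD, n = 4) and 183 ± 12.2 CPM in saline mice (SD, n = 5). The log2 fold change was -0.17 (SE 0.09, 95% interval -0.37 to 0.03), with an adjusted p of 0.963 by edgeR's quasi-likelihood test. Ethanol 2, the library with many low long transcripts, was the lowest of all for Csf1, Csf2ra and Csf2rb, and the part of that library's composition in these values was not tested. The log2 fold change of Csf2rb stayed below 0 without each library in turn, from -0.24 to -0.10.

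The copy Csf2rb2 was set apart by that 1 library. It had 65.7, 16.0, 91.8 and 71.3 CPM in ethanol mice 1 to 4, against 94.2, 74.4, 79.8, 86.0 and 81.6 CPM in saline mice 1 to 5. Ethanol 2 was far below the rest, and the other ethanol values ran from below the saline range to within it. Csf2rb2 took 28.2%, 10.4%, 33.3% and 30.7% of the pair's counts in ethanol mice 1 to 4, against 32.4%, 30.9%, 31.4%, 31.4% and 30.2% in saline mice 1 to 5. The share in ethanol 2 had a Wilson 95% interval of 9.47% to 11.4%, while the other 8 libraries lay between 28.2% and 33.3%. The fitted log2 fold change was -0.45 (SE 0.37, 95% interval -1.26 to 0.37; adjusted p = 0.963, edgeR's quasi-likelihood test), and without 1 library in turn it ranged between -0.71 (without ethanol 3) and -0.13 (without ethanol 2). Among the 8480 genes compared, Csf2rb2 was the 35th lowest in ethanol 2 relative to the other libraries.

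**Figure D3:**
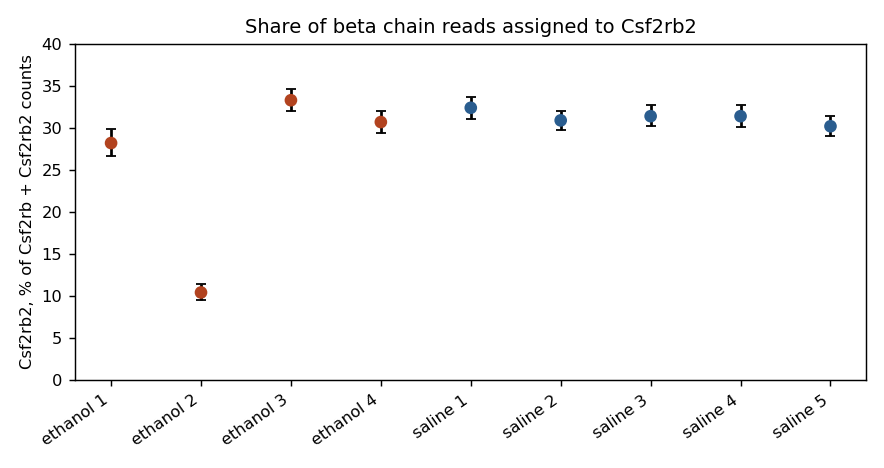
Csf2rb2 as a percentage of the counts of Csf2rb and Csf2rb2 together, by library (ethanol libraries on the left); bars are Wilson 95% intervals, which cover counting error only. Ethanol 2 sits at 10.4%, and the other 8 libraries lie between 28.2% and 33.3%.

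The mice fell into an older cohort (P35 and P36, 4 mice) and a younger cohort (P29 and P30, 5 mice), each with both treatments. Age was compared in a fit that also held treatment, but age ran close to the suffix of the library names. Every library with the suffix 1-6-16 was younger (ethanol 3 and 4, saline 2 and 5). Those with 1-5-16 were older (ethanol 1 and 2, saline 3) except saline 4, and saline 1 (older) had 1-X-16. In ethanol mice age and suffix cannot be told apart, here or in the interaction below. No member was called, and edgeR's quasi-likelihood test called 0 of 13067 genes (percent called 0), with 372 (2.85%) at an unadjusted p under 0.05; DESeq2 called 0, with 451 at that level. Csf2ra had the largest fitted difference of age. It averaged 51.6 ± 10.5 CPM in older mice (SD, n = 4) and 68.3 ± 15.5 CPM in younger mice (SD, n = 5), with overlapping groups, as all members had (1.24% of all genes tested did not overlap). Its log2 fold change was -0.40 (95% interval -0.81 to 0.0033), with an adjusted p of 0.973 by edgeR's quasi-likelihood test. Without 1 library in turn it ranged between -0.54 (without saline 3) and -0.23 (without ethanol 4). Csf1r, Csf3r, Csf2rb and Csf1 had log2 fold changes of 0.04, 0.04, -0.06 and -0.0015 with age, and all of their intervals spanned 0. Of the 5 members 3 lay below 0, against 54.8% of all genes tested. Csf2rb2 had one of -0.38, with an interval of -1.21 to 0.44. Without ethanol 2 its value was -0.03, and without 1 library in turn it ranged between -0.58 and -0.03.

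The difference between older and younger mice in their ethanol effect was tested as an interaction, which called 0 of 13067 genes by edgeR's quasi-likelihood test (percent called 0), with 423 (3.24%) at an unadjusted p under 0.05; DESeq2 called 1 gene, C130089K02Rik, which is no CSF gene. Csf1 averaged 34.8 CPM in older ethanol mice and 54.3 CPM in older saline mice, against 43.3 CPM in younger ethanol mice and 45.4 CPM in younger saline mice. The log2 difference between these effects was -0.58 (95% interval -1.57 to 0.41), with an adjusted p of 0.972 by edgeR's quasi-likelihood test. Without 1 library in turn it ranged between -0.97 (without saline 3) and -0.04 (without saline 1, the older saline library at 71.2 CPM). That of Csf2ra was -0.49, of Csf2rb -0.21, of Csf3r -0.12 and of Csf1r -0.05, with adjusted p-values between 0.972 and 0.980. All 5 members lay below 0, against 51.2% of all genes tested. For Csf2rb2 it was -1.12 (95% interval -2.65 to 0.41, adjusted p = 0.972). Without ethanol 1, when ethanol 2 was the lone older ethanol library, the value for Csf2rb2 was -2.43. Without ethanol 2, when ethanol 1 was the lone one, it was -0.42. The lone older ethanol library was in both fits assumed to vary like the other groups, so only the fitted values are given. With no filter on low counts, Csf2rb2 had nearly the same value, -1.11, but an adjusted p of 0.0105 by edgeR's quasi-likelihood test, against 0.972 with the filter. Both fits held ethanol 2, at 16.0 CPM, among the few older ethanol libraries, so that p-value depends on the filter and was not tested without this library.

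**Figure D4:**
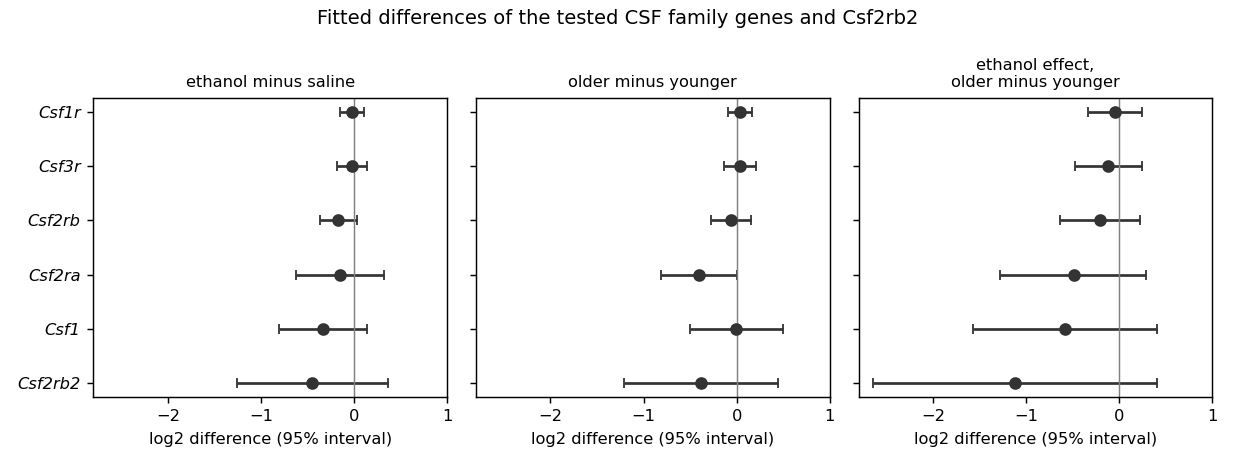
Fitted log2 differences with 95% intervals for ethanol over saline (left), older over younger mice (middle) and the ethanol effect in older over that in younger mice (right), for the 5 tested family genes and Csf2rb2. All intervals span 0, and Csf2rb2 has the widest.

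The other genes of the pathway were read from 6 lists, and edgeR's quasi-likelihood test called 0 of their tested members for ethanol, as it did over all genes (percent called 0). Of 9 other ligands and receptor chains of these families, 6 had no count in any library: the ligand genes Csf2, Csf3, Il3 and Il5, the IL-5 receptor alpha gene Il5ra, and Sdc1, a syndecan gene. Il3ra, the alpha chain gene of the IL-3 receptor, had 0.878 ± 0.175 CPM in ethanol mice and 1.06 ± 0.359 CPM in saline mice (SD, n = 4 and 5). For each gene at 0, a library's floor of 3 counts allows 0.103 to 0.238 CPM. Of 8 class III receptor tyrosine kinase and ligand genes, 6 were tested, with 1 above and 5 below a log2 fold change of 0 and a median of -0.16. Kitl, the ligand gene of the receptor KIT, had the smallest p there. It had 13.3, 4.93, 10.8 and 11.6 CPM in ethanol mice 1 to 4, against 11.7, 14.2, 22.5, 13.4 and 11.9 CPM in saline mice 1 to 5. Ethanol 2 was its lowest library and saline 3 its highest, and the groups overlapped (log2 fold change -0.55, 95% interval -1.18 to 0.08, adjusted p = 0.963, edgeR's quasi-likelihood test). Pdgfb, a platelet-derived growth factor gene and the highest of that list, had 119 ± 12.7 CPM in ethanol mice (SD, n = 4) and 121 ± 30.8 CPM in saline mice (SD, n = 5), and Pdgfa, another, was fitted at -0.19 on the log2 scale (95% interval -0.52 to 0.14).

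Genes that act below the receptors were measured throughout. All 22 genes of CSF1R signalling were tested, with 6 above and 16 below 0, a median log2 fold change of -0.04 and a range of -0.32 to 0.15. Inpp5d, which encodes the inositol phosphatase SHIP1 and was the highest of them, had 1591, 1157, 1625 and 1463 CPM in ethanol mice 1 to 4, against 1796, 1577, 1639, 1583 and 1615 CPM in saline mice 1 to 5. Ethanol 2 was the lowest library and saline 1 the highest, and the groups overlapped. Gab2, a docking protein gene, had a log2 fold change of -0.30 (SE 0.13, 95% interval -0.59 to -0.02), with an adjusted p of 0.963 by edgeR's quasi-likelihood test; it was the 1 gene of its list at an unadjusted p under 0.05. Of 12 JAK-STAT genes of the GM-CSF and G-CSF receptors, 11 were tested, with 4 above and 7 below 0 and a median of -0.04. Jak1, a kinase gene and the highest of these, was fitted at -0.12 on the log2 scale (95% interval -0.27 to 0.02). Socs3, a feedback inhibitor of JAK-STAT signalling, had 21.3, 19.7, 27.7 and 21.2 CPM in ethanol mice 1 to 4, against 26.0, 27.6, 33.7, 36.4 and 29.1 CPM in saline mice 1 to 5. Its groups overlapped through ethanol 3 (log2 fold change -0.44, 95% interval -0.74 to -0.15, adjusted p = 0.963, edgeR's quasi-likelihood test).

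Transcription factor genes known to regulate Csf1r had log2 fold changes on both sides of 0, and the ERK feedback genes held the smallest p of all lists. All 6 regulators were tested, with 3 above and 3 below 0 and a median of -0.0067. Irf8 and Spi1, which encode the myeloid factors IRF8 and PU.1, had log2 fold changes of 0.0098 (95% interval -0.17 to 0.19) and 0.07 (-0.11 to 0.25), and Runx1 had one of -0.10 (-0.33 to 0.12). Of 7 ERK feedback genes 5 were tested, with 2 above and 3 below 0. Dusp6, a phosphatase gene that limits ERK, had 596, 546, 491 and 494 CPM in ethanol mice 1 to 4, against 674, 671, 1064, 1130 and 700 CPM in saline mice 1 to 5. Every ethanol library lay below every saline library, as for 0.628% of all genes tested, and saline 3 and saline 4 stood above the other saline libraries. The log2 fold change of Dusp6 was -0.67 (SE 0.17, 95% interval -1.06 to -0.29), with an adjusted p of 0.963 by edgeR's quasi-likelihood test. Spry1, another feedback inhibitor, had one of -0.32 (95% interval -0.67 to 0.03).

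**Figure D5:**
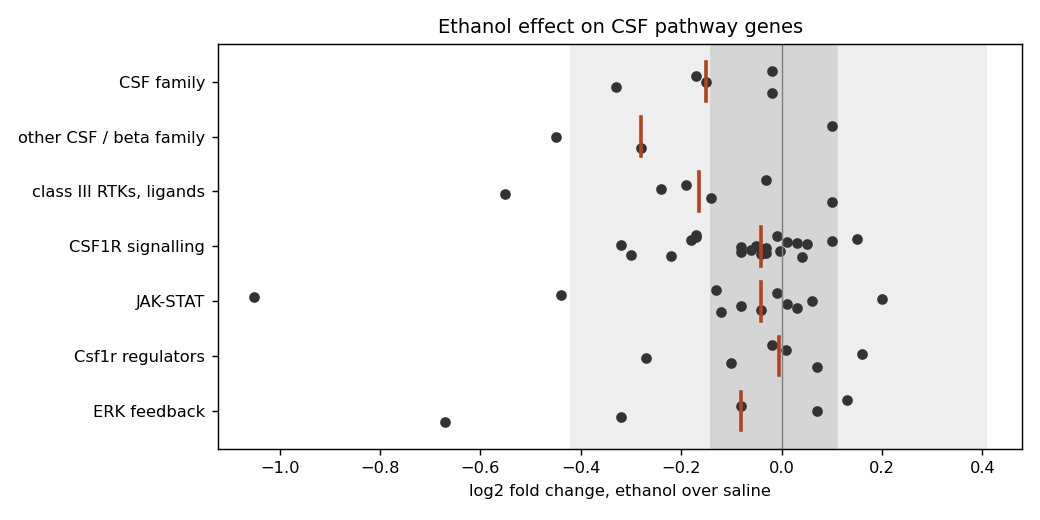
Log2 fold change of ethanol over saline for each tested gene of the CSF family and the 6 pathway lists; red lines are list medians, the dark band holds the middle of all genes tested (25th to 75th percentile, -0.14 to 0.11) and the light band the 5th to 95th percentile (-0.42 to 0.41). Dusp6 lies at -0.67 and Socs2, a gene of low counts, at -1.05, and 0 of the genes plotted passed the adjusted threshold.

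The genes whose log2 CPM ran most like each member over the 9 libraries were found by Pearson's r among 7983 genes, as a description. For Csf1r these were Vezt (r = 0.927), Soat1 (0.915) and Stat5a (0.912), each highest in saline 1. For Csf1 they were Trappc12 (0.956), Slc35e2 (0.939) and Vps8 (0.903), also highest in saline 1. Csf3r ran most like Pigv (0.941), Slc17a9 (0.918) and Elp4 (0.899). Csf2ra ran most like Luc7l2 (0.979), Mlxipl (0.962) and Slc25a37 (0.959), which were highest in saline 2 and lowest in ethanol 2. Csf2rb ran most like Smo (0.977), Dag1 (0.954) and Hs2st1 (0.953), and Csf2rb2 most like Asna1 (0.992), Tsc2 (0.991) and Arhgap31 (0.990), all of them lowest in ethanol 2.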

How the data were processed

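The authors deposited unnormalized read counts by gene symbol for 9 libraries. Per the submitters' processing notes, the tools included HTSeq 0.6.1, STAR 2.4.2a and Trimmomatic 0.32, with the build GRCm38.p4; no source used here gives the strand setting or annotation release. Genes were kept by filterByExpr (minimum count 10, minimum total 15), library sizes were TMM-scaled, and differences were tested over all 13067 genes left with edgeR 4.0.16 (quasi-likelihood, robust; R 4.3.3), Benjamini-Hochberg adjusted, threshold 0.05. DESeq2 1.42.0 and limma 3.58.1 gave alternatives. TPM used GENCODE M21 union exon lengths; order tests added 0.01 TPM. Permutation tests used numpy 2.4.6. Library totals of 12816198 to 28859244 set the counting error. The script was tested on simulated data. For ethanol against saline, it recovered 29.9% of genes changed 1.5-fold, 70.1% of those changed 2-fold and 87.9% of those changed 4-fold. Small changes could thus be missed. Each library is 1 mouse, and p-values measure the spread between these libraries. The members, pathway lists and comparisons were chosen with earlier results of these data known. Named from each list were its highest gene and those with the smallest ethanol p, with all members and Csf2rb2; the most alike genes, and C130089K02Rik, Adrb1, Nfkbia, Tagap and Socs2, were named from their values. No column was left out.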

Additional observations from a re-analysis of the deposited data

Results flagged for a closer look

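Of 40 groups of libraries checked (20 genes), 4 held a library far from the others of its group, where chance gives about 1 in 20. Csf1r had 20844 CPM in saline 1, with the other saline libraries between 18877 and 19182 CPM. Inpp5d had 1796 CPM in saline 1, with the others between 1577 and 1639 CPM. Kitl had 22.5 CPM in saline 3, with the others between 11.7 and 14.2 CPM, and Jak1 had 535 CPM in saline 5, with the others between 488 and 497 CPM.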

How the results depend on the processing

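Ethanol called 0 genes under all 20 alternatives, and no member was called under any alternative for ethanol, age or their interaction. Intervals allow a Csf1r fold between 0.904 and 1.08 but are wide for Csf1, Csf2ra and Csf2rb2. The ethanol log2 fold change of Csf1r was 0.0044 with limma-voom, 0.01 without saline 1 and ethanol 2, and 0.0082 with the library-name suffix as a term; leaving out 1 library gave -0.04 to 0.0084. That of Csf3r was 0.0083 with the suffix term and -0.06 to 0.0076 without 1 library. In younger mice alone, Csf2ra had 0.07, Csf3r 0.02 and Csf2rb2 0.01. Age called 97 genes with no filter on low counts (88 of them pass the filter) and 3 genes (Adrb1, Nfkbia and Tagap) without saline 1 and ethanol 2, against 0. With age, leaving out 1 library gave -0.30 to 0.12 for Csf1, -0.13 to 0.0096 for Csf2rb and -0.0039 to 0.08 for Csf3r. Csf3r had -0.02 without saline 1 and ethanol 2 and -0.02 in ethanol mice alone; Csf1 had 0.01 per day of age. In saline mice alone, Csf1 had 0.26, Csf2rb 0.04 and Csf2rb2 0.11. The interaction called 1 gene with DESeq2, 53 with no filter and 0 to 848 without 1 library, against 0; Csf1r there ran from -0.12 to 0.03. The level of Csf2rb over Csf2ra was 0.44 (log2) with the longest transcript and 0.16 to 0.28 without 1 library. The cause of these changes was not tested.

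Same-numbered ethanol and saline libraries deviated with correlations of -0.08, 0.01, -0.17 and -0.06, within the -0.31 to 0.28 of differently numbered ones. These values showed no sign of pairing by replicate number, but so few cannot exclude it. With the replicate number as a block (saline 5 left out), ethanol and age each called 0 genes, and the age log2 fold changes of Csf1r and Csf3r were -0.04 and -0.00072. That of Csf2rb2 was -1.20 with the block (adjusted p = 0.745, edgeR's quasi-likelihood test), against -0.38 without it. Same-numbered mice differed in age cohort only for numbers 2 and 3, so age in the block fit rests on those mice. They include ethanol 2, where Csf2rb2 was at 16.0 CPM.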

Other observations

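Members were also set against some of what was recorded for each mouse, a comparison chosen after the data were seen. Tissue weight and body weight were recorded too but were not compared. The 5 tested members and 4 measures (sorted cells, RNA concentration, RNA integrity number and library total) gave 20 relations over 9 mice, with p-values adjusted over these 20. The number of sorted cells was 9934, 12579, 9291 and 19071 in ethanol mice 1 to 4, against 8923, 17832, 16430, 14602 and 11603 in saline mice 1 to 5. On the log2 CPM scale, Csf1r was lower where more cells had been sorted, with Pearson's r = -0.85 (exact permutation p = 0.00105, adjusted p = 0.0210) and Spearman's rho = -0.92 (exact permutation p = 0.00131, adjusted p = 0.0262). Without the 2 mice farthest from the median number, ethanol 4 and saline 2, r was -0.78. Of 8480 genes with a mean of at least 10 CPM, 1.46% had a correlation at least as large in size. Csf2ra ran the other way, with r = 0.82 (exact permutation p = 0.00768, adjusted p = 0.0768) and rho = 0.78 (exact permutation p = 0.0172, adjusted p = 0.172), and r was 0.50 without those 2 mice, so that relation rests on them. With the treatment means taken out of both values and permutation within treatments alone, r was -0.91 for Csf1r (exact permutation p = 0.000694, adjusted p = 0.00694 over 10 such relations) and 0.81 for Csf2ra (exact permutation p = 0.0170, adjusted p = 0.0567). With the age cohort means taken out, r was -0.84 for Csf1r (exact permutation p = 0.00694, adjusted p = 0.0347) and 0.81 for Csf2ra (exact permutation p = 0.0323, adjusted p = 0.0807). Of the first 20 relations, 1 (that of Csf1r with sorted cells) had an adjusted p under 0.05. The relations with means taken out were run for sorted cells alone, on the same 9 mice. Their p-values do not allow for that choice of measure and give no independent support. All of these relations used log2 CPM, and none was tested on the TPM scale. There the lowest Csf1r library was ethanol 2 (11514 TPM, 12579 cells). Ethanol 4, the lowest by CPM, had 11789 TPM (19071 cells), so the order of the libraries depends on the scale. That Csf1r was lower where more cells had been sorted is thus shown for log2 CPM alone.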
